A study of Mus musculus with 9 samples.

Results

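The miRNAs described here are the members of the miR-17, miR-18, miR-20, miR-93 and miR-106 family that were sequenced in mouse epididymosomes, the small membrane vesicles that the epididymal epithelium sheds into the lumen of the tract. They were chosen by name alone: every row whose name began with miR-17-, miR-18a-, miR-20a-, miR-20b-, miR-93-, miR-106a- or miR-106b- was taken, whichever arm of the hairpin it came from. This rule found 6 of the 358 miRNAs of the dataset, namely miR-17-5p, miR-18a-5p, miR-20a-5p, miR-93-5p, miR-106b-5p and miR-106b-3p. No row had a name that began with miR-20b- or miR-106a-, so these were not analysed here. The epididymosomes came from the caput, corpus and cauda, the proximal, middle and distal segments that spermatozoa pass in this order, with 3 libraries per segment and 9 in all. All groups shared the same animals' description: male Swiss mice (inbred in the study's methods) aged 8 weeks, with no other agent or allele in the labels. Each library held the RNA of several pooled mice, so that replicate spread is a spread between pools and single animals cannot be seen. The levels are in CPM, counts per 1000000 miRNA reads of a library, as the authors deposited them.

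Depth in reads on miRNAs per library was 8274421 to 11306605 in the caput, 1548581 to 6190324 in the corpus and 2001086 to 5896748 in the cauda. Each caput library was thus deeper than all others, and depth cannot be told apart from segment in comparisons with the caput. Every member had at least 39 reads in every library. All 6 members reached a mean of 10 CPM, the study's detection level, in each segment. Scaling by library size ties every level to the most abundant miRNAs: the share of miR-10a-5p plus miR-10b-5p was 50.5% to 71.3% in the caput, 50.3% to 53.2% in the corpus and 33.2% to 34.5% in the cauda. Caput replicate 2, in which this share was 71.3%, gave the lowest of the 9 levels for 6 of the 6 members. Caput replicate 3, with a share of 50.5%, gave the highest caput level for 6 of 6, and neither order was counted over all miRNAs. The comparisons were therefore also made with TMM scaling, which sets libraries equal on the bulk of their miRNAs in place of the total. CPM levels and statements on overlap are with library size scaling unless TMM is named. The labelled source was compared with marker miRNAs of several cell types. The 5 epithelial markers (the miR-200 family and miR-141) summed to 20989.9 to 31796 CPM in the caput, 71973 to 84209 CPM in corpus libraries and 44552 to 61007 CPM in the cauda. Other marker lists were also present and moved between segments. Smooth muscle markers (4 of 4 detected) summed to 50115 to 88995, 88423 to 121412 and 291676 to 354786 CPM in caput, corpus and cauda libraries, and red blood cell markers (4 of 5) to 223 to 848, 389 to 1104 and 3019 to 4348 CPM. Leukocyte markers (5 of 5) summed to 231 to 530, 515 to 1149 and 392 to 1601 CPM, striated muscle markers (4 of 5) to 55.5 to 197, 121 to 167 and 1403 to 4146 CPM, and germ cell markers (7 of 8) to 256 to 958, 588 to 718 and 1727 to 2077 CPM. None of the detected markers was at 0 in a whole segment, and the part of these cells in the results below was not tested. In pooled vesicle RNA, fewer vesicles from a cell type and less of a miRNA per vesicle cannot be told apart.

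A miRNA pairs with target messenger RNAs mainly through its seed, bases 2 to 8 from its 5′ end, and miRNAs that share a seed can repress the same targets. The miR-17 family is known for promoting the cell cycle and survival, with the cell cycle inhibitor p21 (Cdkn1a) and factors of the E2F family among its established targets. Its members are made from polycistronic transcripts, in which several hairpins are cut from the same RNA. miR-17, miR-18a and miR-20a come from the miR-17-92 cluster, widely known as oncomiR-1, together with miR-19a, miR-19b and miR-92a. miR-106b and miR-93 come from the miR-106b-25 cluster, together with miR-25, within the gene of the DNA replication licensing factor Mcm7.

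The mature sequences are shown because the seed divides the members and because some of them differ by very few bases, so that reads could be counted for the wrong name. All 6 members were matched by name to RefSeq sequences of GRCm38.p6, as were 299 of the 358 miRNAs. The genome build that the authors used is not given in the sources used here. The seed is in capitals.
miR-17-5p: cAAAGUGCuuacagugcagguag
miR-20a-5p: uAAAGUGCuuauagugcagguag
miR-93-5p: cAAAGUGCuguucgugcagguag
miR-106b-5p: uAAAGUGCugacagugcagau
miR-18a-5p: uAAGGUGCaucuagugcagauag
miR-106b-3p: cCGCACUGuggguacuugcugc
The same seed, AAAGUGC, was shared by 4 members, miR-17-5p, miR-20a-5p, miR-93-5p and miR-106b-5p, and by no other matched miRNA of the dataset. miR-18a-5p differs from these inside the seed, by A4G relative to miR-17-5p, and miR-106b-3p, from the opposite arm, has an unrelated seed. Counting from 1 at the 5′ end of miR-17-5p, miR-20a-5p differs from it by C1U and C12U. miR-106a-5p, which was not analysed here, differs from miR-17-5p only by U10A, and miR-20b-5p differs from miR-20a-5p by U1C and U10C, counted from the 5′ end of miR-20a-5p. How many mismatches the authors' counting allowed is not given in the sources used here, so the levels of miR-17-5p and miR-20a-5p may hold reads of these close relatives. The seed of miR-18a-5p, AAGGUGC, is in 2 mature miRNAs of the reference and in 1 matched miRNA of the dataset. The other mature miRNA was not compared with it, so whether its reads were counted for miR-18a-5p was not tested.

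In the genome, mature miR-17-5p lies at chr14:115043684-115043706, miR-18a-5p at chr14:115043867-115043889 and miR-20a-5p at chr14:115044183-115044205, all on the plus strand of GRCm38.p6 and within an exon of the long non-coding RNA gene Mir17hg in the GENCODE annotation. miR-93-5p lies at chr5:138165574-138165596, miR-106b-5p at chr5:138165787-138165807 and miR-106b-3p at chr5:138165746-138165767, on the minus strand within Mcm7. The hairpin of miR-106b is intronic, and that of miR-93 lies in an intron that a retained-intron transcript of Mcm7 keeps.

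miR-93-5p was the most abundant member, with a mean of 499.6 CPM over the 9 libraries, which placed it at rank 79 of the 358 miRNAs. The other members ranged from miR-17-5p at 80.7 CPM, rank 150, to miR-106b-3p at 27.9 CPM, rank 223. In the caput the order was miR-93-5p, miR-17-5p, miR-20a-5p and miR-106b-5p in each library, followed by miR-18a-5p and miR-106b-3p, which changed places between libraries. In the cauda miR-93-5p was again the highest in each library, but miR-18a-5p, at 144 ± 71.1 CPM (SD, n = 3), had the next mean. miR-106b-5p at 74.6 ± 4.01 CPM (SD, n = 3) was the third, and miR-20a-5p, miR-17-5p and miR-106b-3p, with means of 48.8, 46.6 and 41.0 CPM, did not keep an order between cauda libraries.

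**Figure D1:**
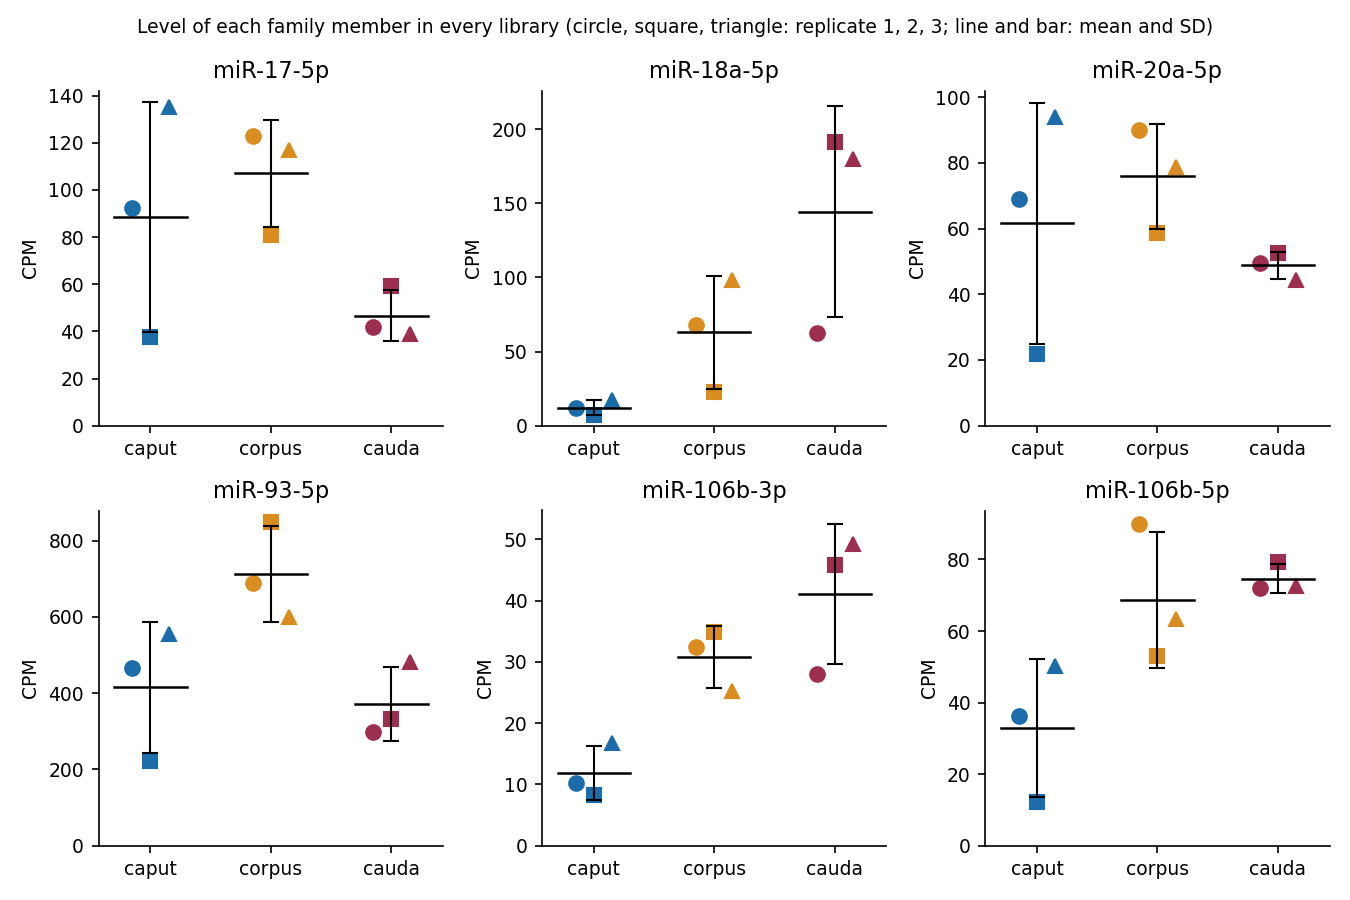
CPM (vertical axis, from 0) of each of the 6 members in the 3 libraries of each segment (circle, square and triangle are replicates 1, 2 and 3; the line and bar are the mean and SD). The 3 cauda libraries of miR-18a-5p, at 62.5 to 191 CPM, lie above all caput libraries, at 7.13 to 17.5 CPM, while miR-17-5p and miR-20a-5p have their highest means in the corpus (with TMM scaling, in the caput).

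Segments were compared with limma on log2(CPM + 1), fitted to all 358 miRNAs and 9 libraries, and a miRNA was called if it differed by 2-fold or more with a Benjamini-Hochberg adjusted p-value under 0.05. Along the tract the 6 members did not move together. From caput to cauda miR-18a-5p and both arms of miR-106b rose, while miR-17-5p, miR-20a-5p and miR-93-5p had log2 fold changes of -0.76, -0.10 and -0.09 that did not pass. The calls numbered 3 of 6, where 49.0% of the 349 miRNAs tested were called, so that the share of members called was near this background. All 3 were higher in the cauda, where 38.7% of the miRNAs tested were called higher and 10.3% lower. Limma-voom on reads recovered from the CPM steps called the same 3 members and 49.3% of all miRNAs. With TMM scaling 3 of 6 were called against 44.9% of all miRNAs, but these were miR-18a-5p and miR-106b-3p, higher as were 24.0% of all, and miR-17-5p, lower as were 20.9% of all. The median log2 fold change of all miRNAs tested was 0.81 with library size and 0.07 with TMM, against 0.64 and -0.02 for the members. CPM values of caput and cauda libraries did not overlap for 3 of 6 members, all higher in the cauda. Of the miRNAs tested 54.2% did not overlap, 42.4% being higher in the cauda and 11.7% lower. With TMM scaling 5 of 6 members did not overlap, against 58.9% of the miRNAs tested, since miR-17-5p and miR-93-5p then lay lower in each cauda library than in each caput library.

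Between caput and corpus 2 of 6 members were called, miR-18a-5p and miR-106b-3p, both higher in the corpus. Of all 321 miRNAs tested 22.4% were called, 19.0% higher and 3.43% lower, and 22.1% with limma-voom, which called the same 2 members. The libraries did not overlap for 4 of 6 members, all higher in the corpus. This held for 34.9% of the miRNAs tested, 29.3% being higher in the corpus and 5.61% lower. With TMM scaling 2 of 6, miR-18a-5p and miR-106b-3p, did not overlap, against 48.3% of the miRNAs tested. The median log2 fold change of the members was 1.04, against 0.47 over all miRNAs tested. With TMM scaling 1 of 6 members, miR-18a-5p, was called, against 28.3% of all miRNAs, 13.1% higher and 15.3% lower, and the medians were 0.48 and -0.10.

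Between corpus and cauda 0 of 6 members were called by limma, and 0 by limma-voom. Of the 342 miRNAs tested 19.0% were called by limma, 14.0% higher and 4.97% lower, and 13.5% by limma-voom. At an unadjusted p under 0.05, limma gave 3 of 6, namely miR-17-5p, miR-18a-5p and miR-93-5p, where 32.5% of the miRNAs tested passed the same threshold. CPM values of miR-17-5p, miR-20a-5p and miR-93-5p were lower in each cauda library than in each corpus library, and the other 3 members overlapped. Of the miRNAs tested 46.2% did not overlap, 30.1% being higher in the cauda and 16.1% lower. With TMM scaling the libraries did not overlap for 3 of 6 members, these same 3, against 47.9% of the miRNAs tested. With TMM scaling 2 of 6 were called, miR-17-5p and miR-93-5p, both lower in the cauda, where 27.1% of miRNAs were called, 16.9% higher and 10.2% lower. The comparisons share libraries, so that their values are not independent of each other.

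**Figure D2:**
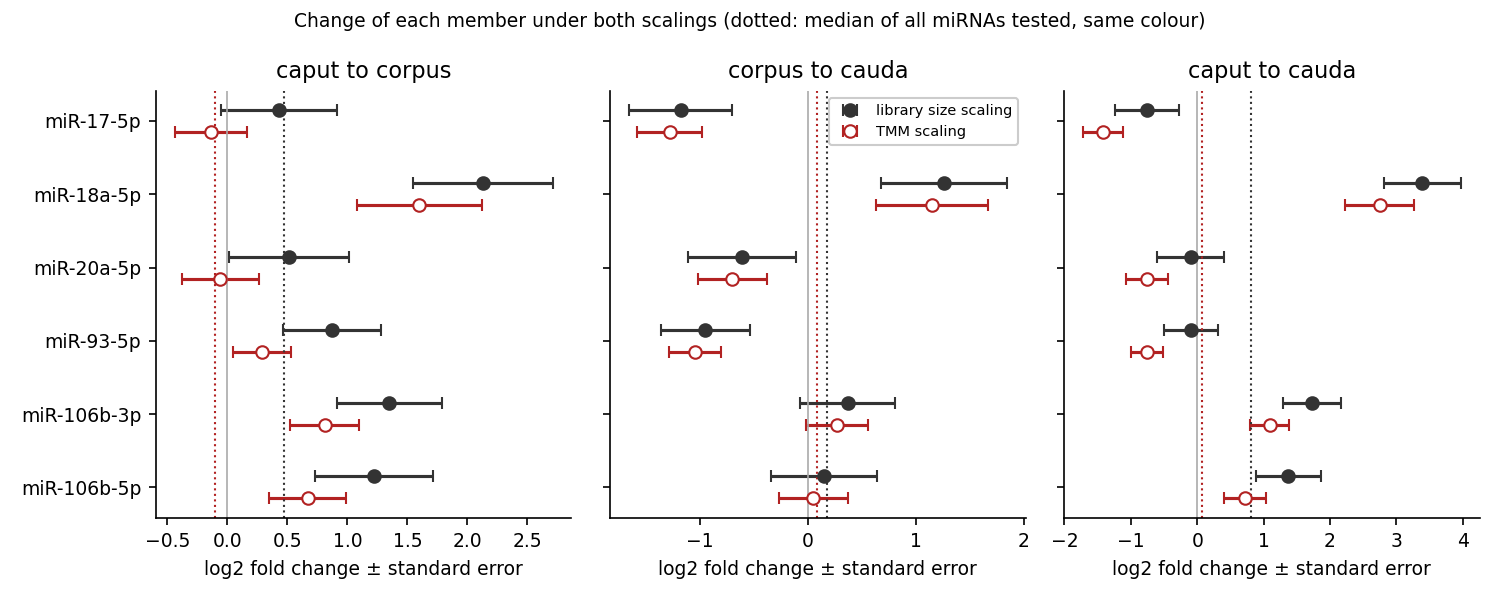
Log2 fold change with its standard error for the 6 members in the 3 comparisons (filled, library size scaling; open, TMM scaling; dotted lines, the median of all miRNAs tested under each scaling). From caput to cauda miR-18a-5p lies at 3.39 and 2.75, beyond both medians, whereas miR-17-5p and miR-20a-5p change sign between the scalings from caput to corpus.

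miR-18a-5p, whose seed differs from that of its relatives, made the largest rise among the 6 members. Its level was 11.8, 7.13 and 17.5 CPM in caput replicates 1, 2 and 3, 67.7, 22.7 and 98.2 CPM in the corpus, and 62.5, 191 and 179.8 CPM in the cauda, from 58 to 1060 reads per library. Each corpus and each cauda library lay above each caput library, while the corpus and cauda libraries overlapped because corpus replicates 1 and 3 were above cauda replicate 1. From caput to cauda it rose 10.5-fold (log2 fold change 3.39, standard error 0.58, adjusted p = 2.0e-04 by limma with Benjamini-Hochberg adjustment). This was 2.58 above the median of all miRNAs tested. With TMM scaling the rise was 6.72-fold, and with any library left out the log2 fold change lay between 3.08 and 3.91 and remained called. From caput to corpus it was 4.38-fold higher (log2 fold change 2.13, standard error 0.58, adjusted p = 0.015 by limma with Benjamini-Hochberg adjustment), and 3.02-fold with TMM scaling. That call was lost without caput replicate 2, corpus replicate 1 or corpus replicate 3, with log2 fold changes of 1.83, 1.96 and 1.70, and the change was 2.73 without corpus replicate 2. From corpus to cauda the log2 fold change was 1.26 (standard error 0.58, adjusted p = 0.14 by limma with Benjamini-Hochberg adjustment) and 1.15 with TMM scaling, and was not called under either.

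miR-17-5p and miR-20a-5p, which come from the same transcript as miR-18a-5p, had another course. miR-17-5p, the founding member of the family, stood at 92.4, 37.8 and 135 CPM in the caput, 123, 81.1 and 117 CPM in corpus libraries, and 42.0, 59.1 and 38.8 CPM in the cauda. The caput libraries spanned the levels of both other segments, and each cauda library was below each corpus library. From corpus to cauda the log2 fold change of miR-17-5p was -1.18, or 2.27-fold lower (standard error 0.48, adjusted p = 0.091 by limma with Benjamini-Hochberg adjustment), and was not called. It was called with TMM scaling, at a log2 fold change of -1.28 and an adjusted p of 0.0096, and also without caput replicate 2 or caput replicate 3, at an unchanged -1.18 with adjusted p-values of 0.020 and 0.046 by limma with Benjamini-Hochberg adjustment. From caput to cauda the log2 fold change was -0.76 (standard error 0.48, adjusted p = 0.20 by limma with Benjamini-Hochberg adjustment). It was -1.42 with TMM scaling and -1.27 without caput replicate 2, and was called in both cases, with adjusted p-values of 0.0026 and 0.016. From caput to corpus it was 0.43 (standard error 0.48), and -0.14 with TMM scaling.

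miR-20a-5p had 69.0, 21.8 and 93.9 CPM in the caput, 90.1, 58.7 and 78.8 CPM in corpus libraries, and 49.5, 52.6 and 44.4 CPM in the cauda. As for miR-17-5p, caput libraries overlapped both other segments and the cauda libraries lay below the corpus libraries. None of its 3 comparisons was called: its log2 fold changes were 0.51 from caput to corpus (95% confidence interval -0.54 to 1.56), -0.61 from corpus to cauda (-1.66 to 0.44) and -0.10 from caput to cauda (-1.15 to 0.95). With TMM scaling these were -0.06, -0.70 and -0.76, and none was called either.

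The ratio of 2 miRNAs within a library does not depend on how libraries are scaled. Such ratios were taken for miRNAs of the same cluster, with the limit that reads of the relatives described above may be counted in them. They are ratios of reads, and whether reads of different miRNAs stand for equal numbers of molecules was not tested. Reads of miR-17-5p outnumbered those of miR-18a-5p in each caput and corpus library, and reads of miR-18a-5p outnumbered those of miR-17-5p in each cauda library. Their ratio (miR-18a-5p over miR-17-5p) lay between 0.127 and 0.188 in the caput, between 0.280 and 0.840 in the corpus and between 1.49 and 4.63 in the cauda, so that the 3 segments did not overlap. Its mean log2 value was -2.78 ± 0.32 (SD, n = 3) in the caput and 1.49 ± 0.84 (SD, n = 3) in the cauda, a change of 4.27 or 19.3-fold, which lay between 3.91 and 4.73 with a caput or cauda library left out. An exact permutation test, which used all 280 ways to split 9 libraries into 3 sets of 3, gave p = 0.00357 for a difference between the segments, the smallest value possible, and an adjusted p of 0.0286 over the 8 ratios tested. The pairs were chosen with the values known. Several of the 8 ratios share miR-17-5p as denominator, so their tests are not independent.

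The ratio of miR-20a-5p to miR-17-5p moved less. It was 0.575 to 0.746 in the caput, 0.674 to 0.733 in the corpus and 0.891 to 1.18 in the cauda, so that the cauda libraries lay above those of both other segments and the caput and corpus overlapped. The change from caput to cauda was 1.59-fold. Over all 3 segments together, the exact permutation test gave p = 0.025 and an adjusted p of 0.0457. Within the miR-106b-25 cluster the ratio of miR-93-5p to miR-106b-5p went from 11.1 to 18.5 in the caput and 7.67 to 16.0 in the corpus to 4.16 to 6.64 in the cauda. The cauda mean was 2.83-fold below the caput mean, and the cauda libraries did not overlap those of the other segments. For this ratio the exact permutation test over the 3 segments gave p = 0.0179 and an adjusted p of 0.0457. These tests do not compare caput with cauda alone, and their adjusted p-values depend on which ratios were chosen for the set.

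**Figure D3:**
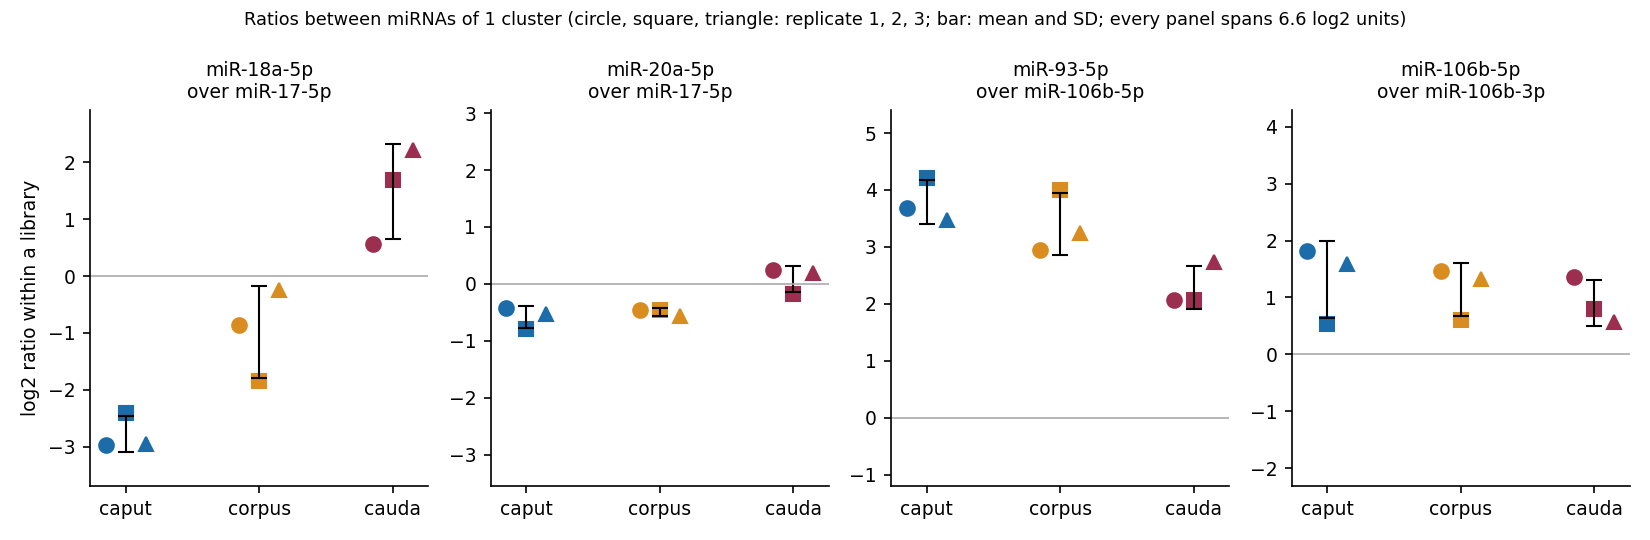
Log2 ratio of 2 miRNAs in each library (vertical axis, the same span in each panel; circle, square and triangle are replicates 1, 2 and 3; bars span the mean ± SD). miR-18a-5p over miR-17-5p climbs from a mean of -2.78 in the caput to 1.49 in the cauda, miR-93-5p over miR-106b-5p drops from 3.79 to 2.29, and the arms of miR-106b overlap between the segments.

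miR-93-5p, which had the most reads among the members with the shared seed, was highest in the corpus. It had 466, 223 and 556 CPM in the caput, 689, 848 and 601 CPM in corpus libraries, and 299, 333 and 482 CPM in the cauda. Each corpus library was above each library of both other segments, and the caput and cauda libraries overlapped. With TMM scaling the corpus overlapped the caput, and both lay above the cauda. The log2 fold change was 0.87 from caput to corpus (standard error 0.41, adjusted p = 0.14) and -0.95 from corpus to cauda (standard error 0.41, adjusted p = 0.11), neither called by limma with Benjamini-Hochberg adjustment. With TMM scaling the corpus to cauda change was called, at -1.05 with an adjusted p of 0.0077, or 1.13 below the median of all miRNAs tested, while the caput to corpus change was 0.29 and not called. Without caput replicate 3 the caput to corpus change was 1.13 and was called. From caput to cauda it was -0.09 (95% confidence interval -0.96 to 0.78), and -0.76 with TMM scaling, not called under either.

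miR-106b was the only member measured on both arms. miR-106b-5p, which carries the shared seed, had 36.2, 12.1 and 50.3 CPM in the caput, 89.8, 52.9 and 63.3 CPM in corpus libraries, and 72.0, 79.2 and 72.6 CPM in the cauda. The caput libraries lay below all others, and the corpus libraries spread around the narrow range of the cauda. Under TMM scaling caput and corpus overlapped. From caput to cauda it rose 2.58-fold (log2 fold change 1.37, standard error 0.49, adjusted p = 0.029 by limma with Benjamini-Hochberg adjustment). That call was lost with TMM scaling (0.72, adjusted p = 0.082), without caput replicate 2 (0.79), and without any of the cauda replicates 1, 2 and 3 (1.39, 1.33 and 1.39). From caput to corpus the log2 fold change was 1.22 (standard error 0.49, adjusted p = 0.086 by limma with Benjamini-Hochberg adjustment), and was not called. It was 0.67 with TMM scaling (adjusted p = 0.14) and 0.64 without caput replicate 2 (adjusted p = 0.21), and was called without caput replicate 3, at 1.62 (adjusted p = 0.018).

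miR-106b-3p, from the other strand of the same hairpin, had 10.3, 8.34 and 16.8 CPM in the caput, 32.5, 34.9 and 25.2 CPM in corpus libraries, and 28.0, 45.8 and 49.3 CPM in the cauda. Here too each caput library was below all others, and the corpus and cauda overlapped. It rose 3.31-fold from caput to cauda (log2 fold change 1.73, standard error 0.44, adjusted p = 0.0040 by limma with Benjamini-Hochberg adjustment) and 2.13-fold with TMM scaling, called with each library left out in turn at 1.52 to 1.99. Its rise of 2.55-fold from caput to corpus (log2 fold change 1.35, standard error 0.44, adjusted p = 0.033 by limma with Benjamini-Hochberg adjustment) was not called with TMM scaling, where the log2 fold change was 0.81. It was also lost without caput replicate 1 (1.29) or 2 (1.15), without corpus replicate 1, 2 or 3 (1.31, 1.26 and 1.49) and without cauda replicate 2 (1.35).

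The hairpin of miR-106b, at chr5:138165737-138165818 on the minus strand of GRCm38.p6, is shown because both of its arms were measured. The capitals mark miR-106b-5p, at positions 12 to 32 of the 82 bases, and miR-106b-3p, at positions 52 to 73.
Mir106b: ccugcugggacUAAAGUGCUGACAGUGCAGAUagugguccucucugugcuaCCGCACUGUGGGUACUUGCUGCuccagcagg
miR-106b-5p exceeded miR-106b-3p in all 9 libraries, by 1.45 to 3.50 times in the caput, 1.52 to 2.77 times in the corpus and 1.47 to 2.57 times in the cauda. The ranges overlapped between all segments. Tested with limma over the 64 precursors whose arms both averaged 10 CPM or more, the log2 ratio of the arms differed by -0.38 between caput and cauda (95% confidence interval -1.28 to 0.52), with an unadjusted p of 0.38 and an adjusted p of 0.50. Between caput and corpus it differed by -0.15 and between corpus and cauda by -0.23, with adjusted p-values of 0.91 and 0.83 by limma with Benjamini-Hochberg adjustment. The arm ratio was called for 15.6% of the precursors between caput and cauda, for 1.56% between caput and corpus and for 6.25% between corpus and cauda.

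The 4 members with the seed AAAGUGC were also added together, since they can repress the same targets. Their summed level was 663, 295 and 835 CPM in the caput, 992, 1041 and 860.1 CPM in corpus libraries, and 463, 524 and 638 CPM in the cauda. The corpus libraries were above all others, and the caput libraries spanned those of the cauda. TMM scaling gave sums of 880, 617 and 717 in caput replicates 1, 2 and 3, of 918, 912 and 761 in corpus libraries, and of 427, 426 and 495 in cauda libraries, so that caput and corpus overlapped and both lay above the cauda. miR-93-5p made up 63.5% to 81.5% of the sum in every library. The share of miR-106b-5p was 4.10% to 6.02% in the caput, 5.08% to 9.06% in the corpus and 11.4% to 15.6% in the cauda, so that it was higher in each cauda library than in any other library. The share of miR-17-5p was 12.8% to 16.2% in the caput, 7.79% to 13.6% in the corpus and 6.09% to 11.3% in the cauda, so that the corpus overlapped both other segments.

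**Figure D4:**
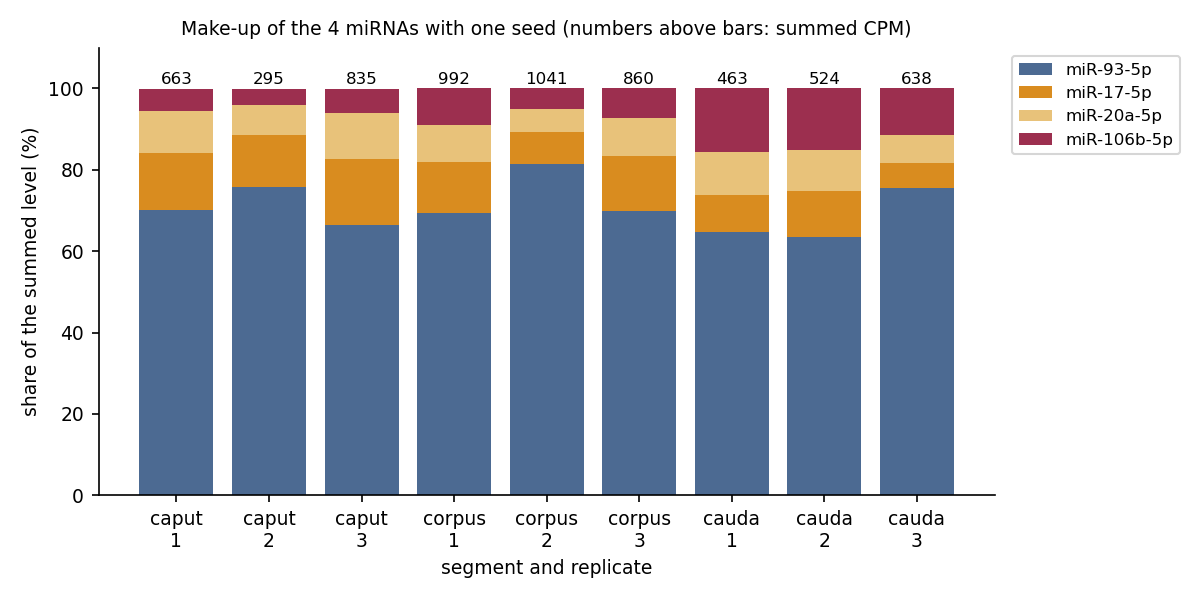
Share in percent (vertical axis) of miR-93-5p, miR-17-5p, miR-20a-5p and miR-106b-5p in their summed CPM, 1 bar per library, with the sum in CPM above each bar. miR-93-5p is the largest part in each library, and miR-106b-5p takes 11.4% to 15.6% in the cauda libraries against at most 9.06% elsewhere.

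The other miRNAs of these clusters show how far the different courses extended. miR-19a-3p and miR-19b-3p lie between or beside the family hairpins on the miR-17-92 transcript. miR-19a-3p stood at 6.16 to 25.9 CPM in caput libraries and 17.2 to 25.2 CPM in corpus libraries, and at 70.5, 187 and 81.2 CPM in cauda replicates 1, 2 and 3. It rose 6.17-fold from caput to cauda (log2 fold change 2.63, standard error 0.54, adjusted p = 9.4e-04 by limma with Benjamini-Hochberg adjustment) and 4.54-fold from corpus to cauda (adjusted p = 0.0091 by the same limma test), the latter call being lost without cauda replicate 2 (1.75). With TMM scaling these rises were 3.97-fold and 4.22-fold, both called, and without caput replicate 2 the caput to cauda log2 fold change was 2.01. miR-19b-3p rose 3.47-fold from caput to cauda (adjusted p = 0.0069 by limma with Benjamini-Hochberg adjustment), 2.18-fold with TMM scaling, and by 1.24 on the log2 scale without caput replicate 2. Relative to miR-17-5p in the same library, miR-19a-3p went from 0.163 to 0.253 in the caput and 0.193 to 0.215 in the corpus to 1.68 to 3.16 in the cauda, with an exact permutation p of 0.0286 and an adjusted p of 0.0457. The ratio of miR-19b-3p to miR-17-5p, at 2.07 to 2.91, 2.06 to 2.92 and 10.6 to 18.3, gave the same exact permutation p and adjusted p. The libraries of caput and corpus thus overlapped in both ratios, unlike in that of miR-18a-5p.

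miR-92a-3p, at the end of the same transcript, was called higher in the corpus than in the caput (log2 fold change 2.16) and lower in the cauda than in the corpus (-2.00), the latter call being lost without corpus replicate 2 (-1.64), and its ratio to miR-17-5p gave an exact permutation p of 0.0893 and an adjusted p of 0.119. In the miR-106b-25 cluster miR-25-3p rose 3.25-fold from caput to cauda (adjusted p = 0.0014 by limma with Benjamini-Hochberg adjustment), and 2.04-fold with TMM scaling. Its ratio to miR-106b-5p gave an exact permutation p of 0.436. In all, 3 of these 4 cluster mates were called from caput to cauda, all higher (49.0% of all miRNAs tested were called), 1 of 4 from caput to corpus (22.4%), and 2 of 4 from corpus to cauda, in opposite directions (19.0%). With TMM scaling the numbers were 3, 1 and 3 of 4, miR-19b-3p being added from corpus to cauda, against 44.9%, 28.3% and 27.1% of all miRNAs. The mature sequences of miR-19b-3p and miR-92a-3p are each also made from a hairpin on chromosome X, so that their reads cannot be assigned to this transcript alone.

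**Figure D5:**
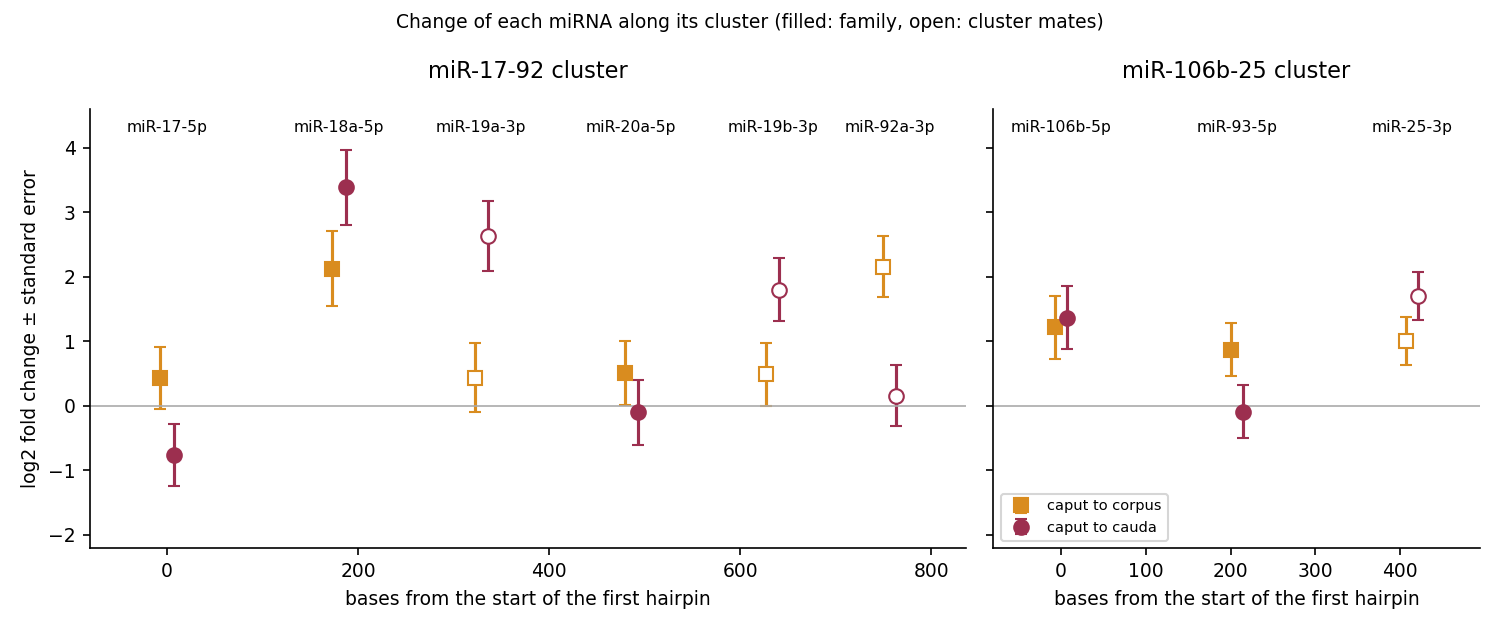
Log2 fold change with its standard error against the distance in bases of each hairpin from the start of the first hairpin of its cluster, for caput to corpus (squares) and caput to cauda (circles), with library size scaling; family members are filled and cluster mates open. Along the miR-17-92 cluster the caput to cauda change is -0.76 for miR-17-5p, 3.39 for miR-18a-5p, 2.63 for miR-19a-3p and -0.10 for miR-20a-5p. It is 1.8 for miR-19b-3p and 0.16 for miR-92a-3p. With TMM scaling these 6 changes are, in the same order, -1.42, 2.75, 1.99, -0.76, 1.12 and -0.51.

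The course of each member over the 9 libraries was also compared by the root-mean-square difference of log2(CPM + 1), centred on the mean of each miRNA. Within the family the closest pair was miR-17-5p and miR-20a-5p, at 0.32, and the most distant was miR-17-5p and miR-18a-5p, at 1.79. For miR-93-5p, the most abundant member, the nearest miRNAs outside the family were miR-361-3p at 0.24, miR-30d-5p at 0.26 and miR-30e-5p at 0.27, against a median of 0.83 over all miRNAs outside the family. Being chosen for this likeness, they follow the course of miR-93-5p by selection. Each had its highest mean in the corpus: miR-361-3p at 31.8 CPM, miR-30d-5p at 9673 CPM and miR-30e-5p at 5316 CPM.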

How the data were processed

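Small RNA libraries of mouse epididymosomes were sequenced by the authors on an Illumina HiSeq-2000, screened for contaminants with cutadapt and Bowtie, and quantified for known miRNAs with miRDeep2. The submitters' processing notes name CASAVA 1.8.2, Bowtie 1.1.1 and limma. The deposited values are CPM, normalised by the authors to library size, of 358 miRNAs in 9 libraries. In every library 100% of the values were whole multiples of 1 read within 0.02 reads, from which depth and reads were recovered. Copies of 1 molecule made by PCR cannot be told apart in these reads.

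The authors name edgeR and limma, a fold change of 2 and a false discovery rate of 0.05. Here limma 3.58.1 (R 4.3.3) was used: a linear model of log2(CPM + 1) on segment, with eBayes and an intensity trend, and Benjamini-Hochberg adjustment over miRNAs averaging 10 CPM or more in a segment compared. Fold changes on this scale understate the change of miRNAs with few reads. Arm ratios were tested by limma with a pseudocount of 0.5 CPM, without a trend. TMM factors trimmed 30% of the log ratios and 5% of the mean levels. Ratios of miRNAs were tested by exact permutation of the libraries. The scripts were tested on simulated data. Alternatives were TMM scaling, limma-voom on the recovered reads, other pseudocounts and filters, a replicate block, a fit on 6 libraries, and each library left out.

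The members, lists and tests were chosen with earlier results of these data known. Named miRNAs are all members, the other miRNAs of their clusters, and the 3 miRNAs closest to the most abundant member. Sequences are from RefSeq and hairpin annotation from GENCODE M21. Python 3.11, numpy 2.4, pandas 2.3 and matplotlib 3.10 were used. Columns of other samples were not present, and no 2 libraries held identical reads.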

Additional observations from a re-analysis of the deposited data

How the results depend on the processing

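The number of members called between caput and corpus, 2 of 6 by limma, was 1 with TMM scaling, 1 with a pseudocount of 10 and 1 with the 6 libraries of the comparison alone, and lay between 0 and 4 with 1 library left out. Between corpus and cauda the number, 0, was 2 with TMM scaling and 1 with the 6 libraries alone, and lay between 0 and 1 with 1 library left out. Between caput and cauda the number, 3, was 3 under all 8 other settings run, though with TMM scaling miR-17-5p replaced miR-106b-5p, and 2 to 3 with 1 library left out. Directions changed with TMM scaling for miR-17-5p (-0.14) and miR-20a-5p (-0.06) from caput to corpus. TMM scaling divides every level of a library by the same factor. These factors were 0.753, 0.478 and 1.16 in caput replicates 1, 2 and 3, and 1.08, 1.14 and 1.13 in the corpus. Why the factors differ between libraries was not tested. With 1 library left out, small changes of sign appeared between caput and corpus for miR-17-5p (-0.09 to 0.82), miR-20a-5p (-0.11 to 0.92), the arm ratio of miR-106b (-0.54 to 0.11) and the ratio of miR-20a-5p to miR-17-5p (-0.02 to 0.17), between corpus and cauda for miR-106b-5p (-0.02 to 0.36), and between caput and cauda for miR-20a-5p (-0.71 to 0.32) and miR-93-5p (-0.48 to 0.17); none of these changes was called in the full set. The arm ratio of miR-106b was called under none of the alternatives run for it.

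Libraries with the same replicate number did not deviate together throughout: 6 of 9 correlations of their deviations were over 0.1, with a range of -0.21 to 0.41, and a library was closest to its own number in 10 of 18 checks. The labels and the study's methods do not state whether libraries with the same number came from the same mice. The main limma fit and the permutation tests took the libraries as unpaired. With the replicate block the members called remained 2, 0 and 3 in the 3 comparisons, and the calls over all miRNAs went from 72 to 83, from 65 to 73 and from 171 to 180. The planned edgeR test on recovered reads was not run, because the table holds too few low values for the recovery of reads to be checked as a count model would require; limma-voom on the same reads was run. Leaving out each library of a ratio, and TMM scaling of overlaps and of the seed sum, were added after the data had been seen. Depth limits miR-106b-3p most, with 39 reads in corpus replicate 3.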
